A study of Mus musculus with 6 samples.

Results

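Cholesterol reaches a cell in lipoproteins, is freed from its esters in lysosomes, is carried out of them, and is stored again as ester in lipid droplets. The 9 mouse genes described here encode steps of that route: Scarb1, Vldlr and Lrp8 (receptors), Lipa, Npc2 and Npc1 (release and export from the lysosome), Stard4 (transfer between membranes), and Soat1 and Nceh1 (making and breaking of esters). They were taken by symbol from a list of names that was drawn up with earlier results of these data known, and make up 9 of the 55487 genes in the count tables. Each symbol had 1 identifier.

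The 6 libraries, 3 per group, were labelled as ovarian granulosa cells, the somatic cells of the follicle, of WT genotype. The CPC group was given cetylpyridinium chloride, a cationic antiseptic of mouthwashes, and the Con group PBS, a saline buffer. The labels state no dose, exposure time or animal age, nor whether cells or animals were exposed. The same labels also name SKOV3, a human ovarian cancer line, which the mouse gene identifiers contradict. They also give a protocol of transfection with a vector or GATA4, so which protocol made these libraries is uncertain. Total counts were 19837674 to 22535261 in CPC libraries and 19079345 to 23157541 in Con libraries.

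Most granulosa cell markers looked at were clearly expressed, while Fshr, Cyp19a1 and Amh were low. Inha, an inhibin subunit gene, had 865 to 1381 CPM (counts scaled to library size) in CPC and 1509 to 1933 CPM in Con. Inhba, a further subunit gene, had 1727 to 2698 CPM in CPC and 3804 to 4296 CPM in Con. The transcription factor gene Foxl2 had 29.4 to 41.6 CPM in CPC and 54.8 to 85.1 CPM in Con. Gja1, a gap junction gene, overlapped between the groups, at 1079 to 1896 CPM in CPC and 963 to 1773 CPM in Con. Fshr, the FSH receptor gene, had 1.26 to 1.58 CPM in CPC and 2.57 to 3.59 CPM in Con, and Cyp19a1, the aromatase gene, 0.577 to 1.39 CPM in CPC and 0.404 to 0.605 CPM in Con. Amh, a hormone of growing follicles, was below 1 CPM in every library. Of 11 tested granulosa cell markers 8 were lower in CPC and 0 higher, where 19.7% of all tested genes were lower and 19.6% higher. Macrophage and other leukocyte markers moved with the groups: 12 of 13 tested were lower in CPC, and all 15 summed to 14.6 to 39.3 CPM in CPC and 206 to 335 CPM in Con. C1qc, a complement gene of macrophages, had 0 counts in each CPC library. Of 4 tested luteal markers 3 were lower, with sums of 707 to 1349 CPM in CPC and 3205 to 4995 CPM in Con. Most of these sums came from Hsd3b1 and Star, genes of steroid synthesis. Lhcgr, the LH receptor gene, had at most 1.08 CPM in any library. The sums therefore do not separate luteal cells from other steroid-making cells. Surface epithelium markers followed the replicate number, with sums of 195 CPM in CPC 1 and 137 CPM in Con 1, against 9.23 and 24.5 CPM in CPC 2 and 3 and 10.5 and 34.8 CPM in Con 2 and 3. The part of these cells in the results below was not tested, and in bulk RNA a smaller number of cells and less RNA per cell cannot be told apart. Nothing in the labels says that replicates were separate cultures or animals, so p-values measure the spread between these libraries only.

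Steroid-making cells of the ovary draw on lipoprotein cholesterol. Scarb1 encodes SR-BI, which takes cholesteryl ester selectively from HDL, and Vldlr and Lrp8 encode related lipoprotein receptors that bind apolipoprotein E and reelin. In the lysosome the acid lipase made from Lipa splits the esters, and the soluble NPC2 protein hands the cholesterol to the membrane protein NPC1. STARD4 moves sterol in the cytosol, the acyltransferase encoded by Soat1 esterifies it in the endoplasmic reticulum, and the hydrolase encoded by Nceh1 reverses that. When sterol is low, SREBP2 raises transcription of sterol synthesis and uptake genes, and Stard4 is among its known targets.

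RefSeq promoter windows of build GRCm38.p6, from 250 bases before to 50 after an annotated start, matched 6 of the 9 genes. They were searched on both strands for 3 short motifs. Scarb1, Npc1 and Stard4 had no window here, so their promoters were not searched. The E-box CACGTG was in 7.15% of all 32851 windows, the sterol element core CACNCCAC in 6.24%, and the C/EBP-ATF core TGATGNAA, bound by dimers such as ATF4 with a C/EBP protein, in 3.97%. Of the 9 windows of the 6 genes, 1 held the C/EBP-ATF core, the second start of Vldlr, and 1 held an E-box, the start of Nceh1. The other windows held none of these letters. For each of the 2 related receptors Vldlr and Lrp8, 1 of its windows is shown, picked because these genes moved in opposite directions. Whether the marked motif has any part in that was not tested. Both windows lie on the plus strand, the first at chr19:27216770-27217069 and the second at chr4:107802635-107802934. Capitals mark the C/EBP-ATF core, read on the opposite strand.
Vldlr, second start: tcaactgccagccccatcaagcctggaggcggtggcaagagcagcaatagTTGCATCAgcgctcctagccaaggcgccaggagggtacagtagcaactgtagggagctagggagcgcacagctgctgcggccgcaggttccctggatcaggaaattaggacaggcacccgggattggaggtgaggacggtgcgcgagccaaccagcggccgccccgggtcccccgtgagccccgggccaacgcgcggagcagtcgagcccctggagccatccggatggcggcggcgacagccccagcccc
Lrp8, first start: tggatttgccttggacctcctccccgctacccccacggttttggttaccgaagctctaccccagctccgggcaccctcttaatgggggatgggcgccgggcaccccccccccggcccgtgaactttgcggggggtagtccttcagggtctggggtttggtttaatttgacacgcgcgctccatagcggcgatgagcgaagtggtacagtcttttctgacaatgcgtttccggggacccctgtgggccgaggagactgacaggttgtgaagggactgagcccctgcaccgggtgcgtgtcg

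Of the 9 genes, Npc1 and Vldlr were higher and Stard4, Lrp8 and Npc2 lower in CPC. Scarb1, Lipa, Soat1 and Nceh1 did not pass the test (edgeR's quasi-likelihood test, Benjamini-Hochberg adjusted p of 0.05 over all 15000 tested genes). Among all tested genes 19.6% were higher and 19.7% lower, against 2 and 3 of these 9. In a fit blocked on the replicate number 26.5% of all tested genes were higher and 27.9% lower, against 2 and 5 of these 9. Without replicate 1 of both groups, 928 of all genes were higher and 1033 lower. The libraries of the groups did not overlap for 6 of the 9, where 53.5% of all tested genes had no overlap. Log2 changes ran from -1.98 to 1.96, and their median was -0.21, beside -0.0032 over all tested genes. Calls went both ways within the receptors and within the lysosomal pair Npc1 and Npc2, where Npc2 passed in 7 of 16 alternative fits. With 9 genes, and beside the shares over all tested genes, these counts are not read as a trait of the route. CPM values below are scaled by TMM factors.

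**Figure D1:**
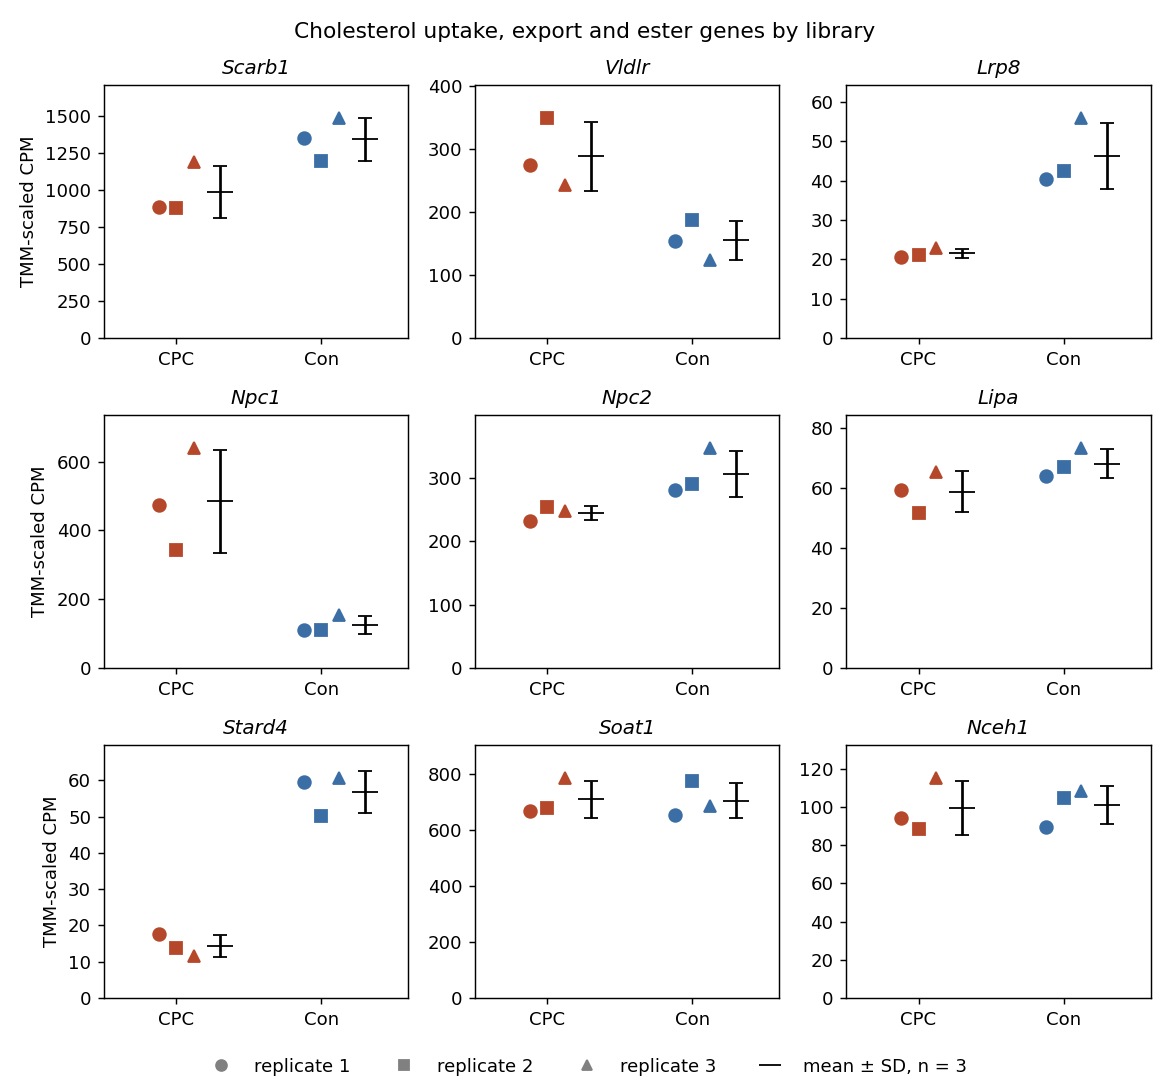
TMM-scaled CPM (y axis, starting at 0) of each of the 9 genes in the 3 CPC and 3 Con libraries, 1 panel per gene; marker shapes give the replicate number and black bars the mean ± SD. Every CPC library lies above every Con library for Npc1, at 342 to 639.95 CPM in CPC and 109.95 to 155 CPM in Con, while the groups lie on top of each other for Soat1 and Nceh1.

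Vldlr (ENSMUSG00000024924; chromosome 19, 27216484 to 27254231) had 274, 349 and 242 CPM in CPC 1 to 3 and 154, 187 and 125 CPM in Con 1 to 3. Every CPC library stood above every Con library. It rose 1.86-fold (log2 change 0.90 ± 0.19, standard error; edgeR adjusted p = 0.00962). Replicate 2 held the highest and replicate 3 the lowest level in both groups. The difference between libraries with the same number was 0.84, 0.90 and 0.96 on the log2 scale for numbers 1 to 3. Without replicate 1 of both groups the log2 change was 0.93 and the call was lost (edgeR adjusted p = 0.0847). That fit had fewer libraries, and calls over all genes fell in it too. They numbered 928 higher and 1033 lower, against 2945 and 2954 in the main fit. That pair had the high epithelial marker sums, and the part of those cells in the Vldlr value was not tested.

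Lrp8, which encodes the apolipoprotein E receptor 2 (ENSMUSG00000028613; chromosome 4, 107801869 to 107876840), had 20.5, 21.2 and 22.9 CPM in CPC and 40.5, 42.4 and 56 CPM in Con. The CPC libraries lay close together and far below the Con libraries. The gene fell 2.15-fold (log2 change -1.11 ± 0.14, standard error; edgeR adjusted p = 0.00129). Its coefficient of variation was 5.67% in CPC and 18.2% in Con. Annotated non-coding genes overlap it on the opposite strand and had at most 8 counts in any library.

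Scarb1 (ENSMUSG00000037936; chromosome 5, 125277087 to 125341094) had 885, 879 and 1187 CPM in CPC and 1346, 1194 and 1484 CPM in Con. The groups only just failed to overlap, since CPC 3 stood just below Con 2. Its log2 change of -0.45 ± 0.15 (standard error; 95% interval -0.81 to -0.09) did not pass (edgeR adjusted p = 0.0533). With the replicate number as a block it did, at -0.46 (edgeR adjusted p = 0.00301), and each CPC library was below the Con library of its number, by 0.60, 0.44 and 0.32 on the log2 scale. The luteal marker sum, mostly Hsd3b1 and Star, was lower in the same libraries. Scarb1 is abundant in luteal cells, and their part in this value was not tested.

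Npc1 (ENSMUSG00000024413; chromosome 18, 12189692 to 12236400) had 11052, 6813 and 13731 counts in CPC and 2060, 2529 and 3290 counts in Con. Scaled, that is 473, 342 and 639.95 CPM in CPC and 109.95, 110.3 and 155 CPM in Con. The lowest CPC library stood well above the highest Con library. The log2 change was 1.96 ± 0.26 (standard error; edgeR adjusted p = 0.00213), with a 95% interval of 2.54-fold to 5.94-fold. CPC libraries varied more for Npc1 than for any other of the 9 genes, with a coefficient of variation of 30.8% in CPC and 20.6% in Con. The 3′ end of Npc1 overlaps the protein-coding gene Rmc1 on the opposite strand, and without strand reads from the overlap cannot be told apart. Rmc1 had 46.1, 44.7 and 55.2 CPM in CPC and 42.7, 38.1 and 50 CPM in Con (edgeR adjusted p = 0.359).

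Npc2 (ENSMUSG00000021242; chromosome 12, 84754562 to 84773152) had 232, 253 and 248 CPM in CPC and 279.7, 289.8 and 347 CPM in Con. All CPC libraries were below all Con libraries, by a small margin. The gene fell 1.25-fold (log2 change -0.32 ± 0.10, standard error; edgeR adjusted p = 0.0383). The call was lost on leaving out any 1 library other than Con 1 (edgeR adjusted p of 0.0545 to 0.115) and without scaling factors (0.0555). Npc2 is abundant in macrophages, whose markers were lower in the same libraries, and their part in this value was not tested.

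Lipa (ENSMUSG00000024781; chromosome 19, 34492318 to 34527474) had 59.2, 51.6 and 65.2 CPM in CPC and 63.8, 67 and 73.3 CPM in Con. CPC 3 stood above Con 1, so the groups overlapped. The log2 change of -0.21 ± 0.10 (standard error; 95% interval -0.46 to 0.03) did not pass (edgeR adjusted p = 0.143). With the replicate block it passed at -0.22 (edgeR adjusted p = 0.0334), and each CPC library was below the Con library of its number, by 0.11, 0.38 and 0.17 on the log2 scale. Without CPC 2 the log2 change was -0.11, and without CPC 3 -0.29.

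Stard4 (ENSMUSG00000024378; chromosome 18, 33199355 to 33213862) had 17.7, 13.8 and 11.6 CPM in CPC and 59.5, 50.1 and 60.7 CPM in Con. The CPC libraries rested on 414, 276 and 249 counts, against 1114, 1149 and 1291 counts in Con. The gene was 3.94-fold lower in CPC (log2 change -1.98 ± 0.17, standard error; edgeR adjusted p = 3.92e-04), with a 95% interval of -2.37 to -1.59. It kept its call in all 16 alternative fits, as did Npc1 and Lrp8.

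Soat1 (ENSMUSG00000026600; chromosome 1, 156424525 to 156474331) had 665, 677 and 785 CPM in CPC and 652, 772 and 684 CPM in Con. Nceh1 (ENSMUSG00000027698; chromosome 3, 27182965 to 27284608) had 94.3, 88.3 and 115 CPM in CPC and 89.6, 105 and 108 CPM in Con. The groups overlapped for both enzymes of the ester cycle. The log2 change was 0.01 ± 0.11 (standard error) for Soat1, with a 95% interval of 0.843-fold to 1.21-fold (edgeR adjusted p = 0.94). For Nceh1 it was -0.02 ± 0.12, with a 95% interval of 0.81-fold to 1.2-fold (edgeR adjusted p = 0.896). The intervals do not exclude changes of that size for either gene.

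**Figure D2:**
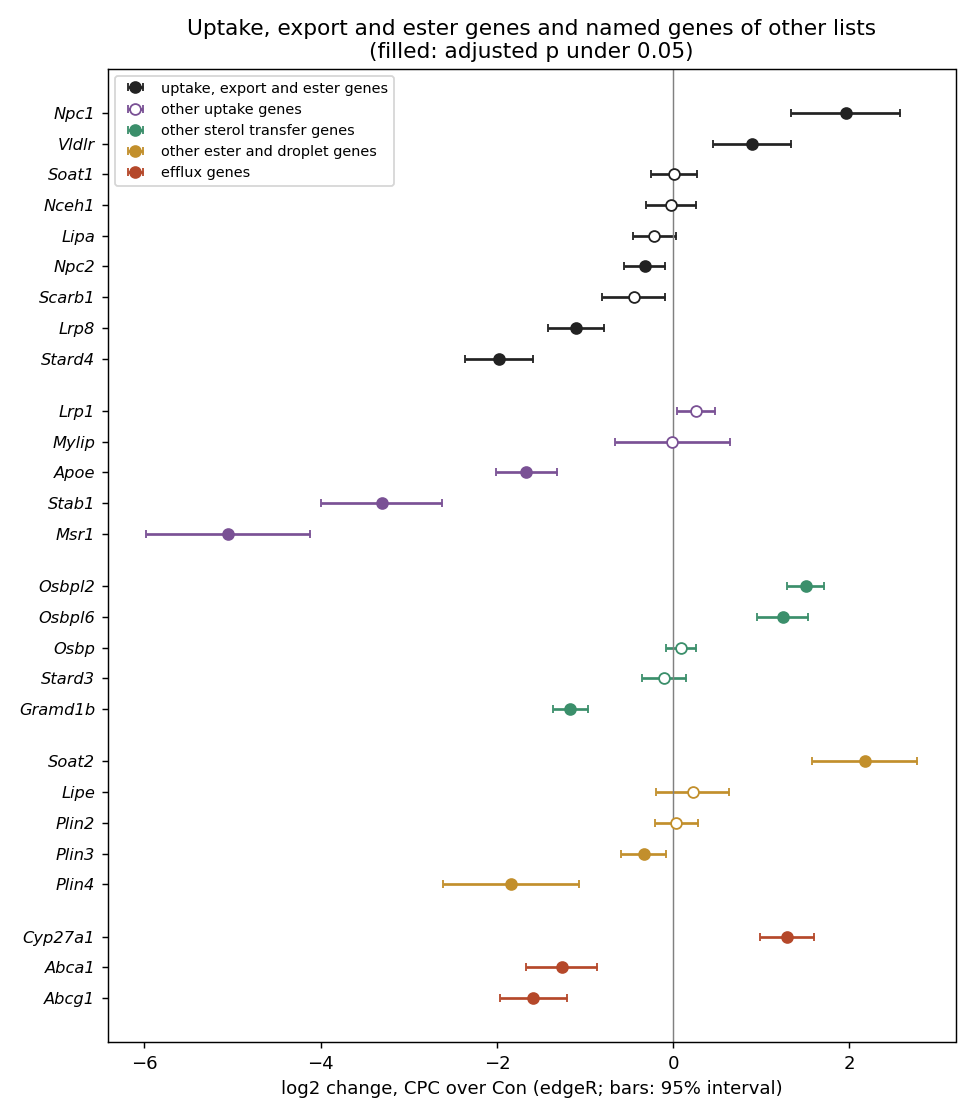
Log2 change of CPC over Con (x axis) with its 95% interval for the 9 genes (top block, black) and for the named genes of 4 other lists; filled circles had an edgeR adjusted p under 0.05. Npc1 at 1.96 and Stard4 at -1.98 mark the ends of the top block, and Soat1 and Nceh1 lie at 0.01 and -0.02.

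Ratios of counts within 1 library do not depend on the scaling between libraries. For Npc1 to Npc2 and for Vldlr to Lrp8 the groups had to separate, since each gene had already separated and in opposite directions. These ratios restate the results of the single genes and are no added support. Npc1 had 2.04, 1.35 and 2.58 counts per count of Npc2 in CPC libraries and 0.393, 0.381 and 0.446 in Con libraries. The ratio was above 1 in every CPC library and below 1 in every Con library. The log2 ratio was 0.94 ± 0.47 in CPC and -1.30 ± 0.12 in Con (SD, n = 3; exact two-sided permutation test, p = 0.1, the smallest that 3 against 3 allows; adjusted over 4 ratios, 0.133). Vldlr had 13.4, 16.5 and 10.6 counts per count of Lrp8 in CPC and 3.79, 4.4 and 2.23 in Con (difference of the log2 ratio 1.99; exact permutation p = 0.1). Stard4 had 0.02, 0.0158 and 0.00978 counts per count of Scarb1 in CPC and 0.0442, 0.042 and 0.0409 in Con (difference of the log2 ratio -1.54; exact permutation p = 0.1). That difference follows from the single log2 changes, -1.98 for Stard4 and -0.45 for Scarb1, and is no added support either. For the ester cycle pair the groups overlapped: Soat1 had 7.05, 7.66 and 6.81 counts per count of Nceh1 in CPC and 7.28, 7.36 and 6.33 in Con. That difference of the log2 ratio was 0.04, below the SD of 0.09 in CPC and 0.12 in Con (exact permutation p = 0.7).

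**Figure D3:**
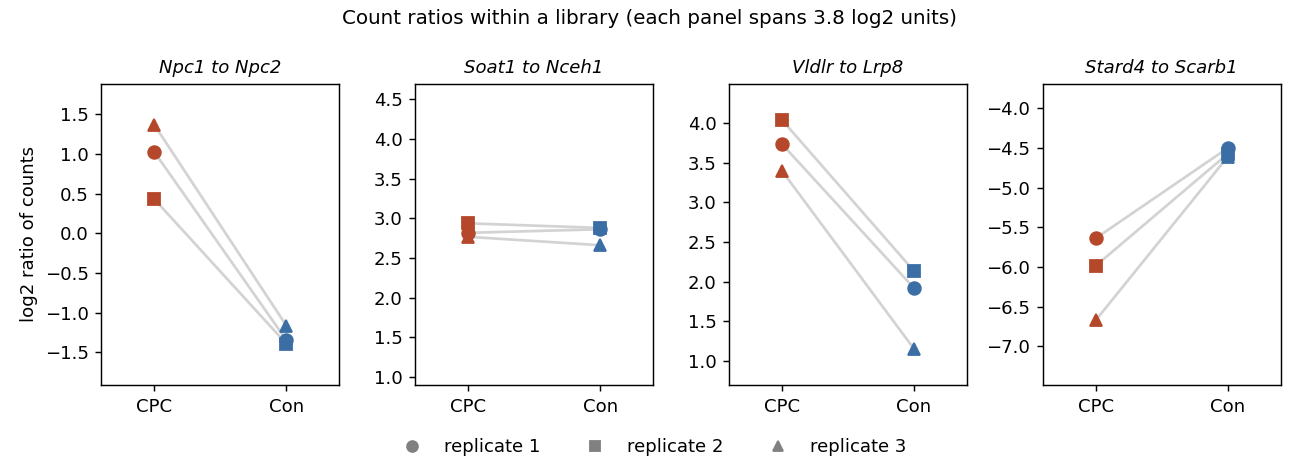
Log2 ratio of the counts of 2 genes within a library (y axis, each panel spanning the same range) for CPC and Con; grey lines join libraries with the same replicate number. The groups do not overlap for 3 ratios, and for Soat1 to Nceh1 the values of 2.77 to 2.94 in CPC overlap the Con values of 2.66 to 2.88.

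Levels of different genes were compared per length, as TPM computed with the union of annotated exons, a choice made after the data were seen. Scarb1 was highest in both groups, at 412 ± 68.4 TPM in CPC and 538 ± 41.3 TPM in Con (SD, n = 3). Soat1 followed at 258 ± 20.6 TPM in CPC and 246 ± 27.1 TPM in Con, and then Npc2 at 160.1 ± 4.06 TPM in CPC and 192 ± 16.6 TPM in Con. Npc1 stood at different places in the order of the groups: it had 153 ± 46 TPM in CPC, within its spread of Npc2 there, and 37.6 ± 6.42 TPM in Con. Vldlr had 102 ± 19 TPM in CPC and 52.9 ± 12.2 TPM in Con. Nceh1 had 67.3 ± 9 TPM in CPC and 65.6 ± 5.93 TPM in Con. In Con the ranges of mean ± SD of Vldlr and Nceh1 overlapped. Lipa had 30.8 ± 3.6 TPM in CPC and 34.3 ± 1.6 TPM in Con, Stard4 9.21 ± 2.2 TPM in CPC and 34.7 ± 2.78 TPM in Con, and Lrp8 7.29 ± 0.304 TPM in CPC and 15 ± 2.23 TPM in Con. Stard4 and Lrp8 were thus the lowest in CPC, within their spread of each other, while in Con Npc1, Stard4 and Lipa could not be ordered beyond theirs. The order depends on the lengths used: with the deposited length of 830 bases, that of 1 short transcript where the longest has 4480, Nceh1 came second in both groups, at 271 ± 36 TPM in CPC and 264 ± 23.7 TPM in Con. With deposited lengths Npc1 had 210 ± 63.3 TPM in CPC and ranked 3 there, above Soat1 at 192 ± 15 TPM and Npc2 at 168 ± 3.69 TPM, though within its spread of both. In Con Npc2 at 201 ± 16.5 TPM then stood above Soat1 at 183 ± 20.7 TPM, also within their spread.

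The libraries of 1 replicate number shared part of their pattern. CPC 3 was the highest CPC library for 6 of the 9 genes and Con 3 the highest Con library for 7. In the differences between libraries of the same number, 2 genes were higher in all 3 pairs, 5 were lower in all 3, and Soat1 and Nceh1 went both ways. The shares of all tested genes with these patterns are not given here, so the counts do not mark out the 9 genes.

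Other receptors and partners of lipoprotein uptake were lower or did not pass. Counts of this list and those below stand beside 19.6% higher and 19.7% lower over all tested genes. Of 21 listed genes 17 were tested, of which 5 fell and 0 rose by edgeR (1 rose at an unadjusted p under 0.05, 1 by DESeq2, 1 without CPC 3, and 3 rose and 11 fell with the replicate block). Apoe, the gene of a ligand of the Vldlr and Lrp8 products, fell 3.17-fold, to 50 ± 5.27 CPM in CPC, against 158 ± 28.4 CPM in Con (SD, n = 3). Macrophage markers were lower in the same libraries, and the part of those cells in the Apoe value was not tested. The scavenger receptor genes Msr1 and Stab1, active in macrophages, fell to 0.245 ± 0.162 and 0.478 ± 0.0312 CPM in CPC, against 8.36 ± 1.2 and 4.78 ± 1.2 CPM in Con, along with the leukocyte markers given above. Lrp1, a large endocytic receptor gene, had 601 ± 46.2 CPM in CPC and 501 ± 16.9 CPM in Con (edgeR adjusted p = 0.0559). It passed as higher with the replicate block (log2 change 0.26, edgeR adjusted p = 0.0189). Mylip, whose product IDOL marks lipoprotein receptors for breakdown, had 10.4 ± 2.38 CPM in CPC and 10.4 ± 3.54 CPM in Con.

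Genes for moving sterol between membranes went both ways. All 26 listed were tested, and 10 rose and 5 fell, with a median log2 change of 0.12. Osbpl2, which encodes an oxysterol-binding protein relative, had 171, 167 and 168 CPM in CPC and 61.8, 52 and 64.3 CPM in Con, a 2.84-fold rise (log2 change 1.51 ± 0.09, standard error; edgeR adjusted p = 1.99e-04). Osbpl6 of the same family rose 2.36-fold, to 33.4 ± 3.23 CPM in CPC, against 14.2 ± 1.84 CPM in Con. Gramd1b, which encodes the sterol transporter Aster-B, fell to 204 ± 15.5 CPM in CPC, against 457 ± 13 CPM in Con (log2 change -1.17 ± 0.08, standard error; edgeR adjusted p = 2.43e-04). The family's founding gene Osbp had 127 ± 2.07 CPM in CPC and 119 ± 8.31 CPM in Con (edgeR adjusted p = 0.35). Stard3, a late endosomal sterol transfer gene, had 15.4 ± 1.08 CPM in CPC and 16.5 ± 0.912 CPM in Con (edgeR adjusted p = 0.47). Rises in this list numbered 3 to 6 on leaving out Con 1, Con 2, any 1 CPC library, or replicate 1 or 2 of both groups, and falls 2 without replicate 1 or 2 of both groups.

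Ester and lipid droplet genes were mostly below the threshold, as Soat1 and Nceh1 were. Of 21 listed 15 were tested, 1 rose and 2 fell (3 rose and 3 fell with the replicate block, and 2 rose without CPC 3). Falls numbered 1 without Con 1, Con 3, CPC 1, CPC 2 or the replicate 2 pair, and 0 when the replicate 1 pair was left out. Soat2, the second sterol acyltransferase gene, had 132, 100 and 120 counts in CPC and 16, 28 and 32 counts in Con and rose 4.51-fold (edgeR adjusted p = 0.00108). That is 5.42 ± 0.352 CPM in CPC and 1.19 ± 0.326 CPM in Con (SD, n = 3). Plin4, a lipid droplet coat gene, fell to 9.1 ± 1.79 CPM in CPC, against 32.6 ± 12.9 CPM in Con, a call lost without replicate 1 of both groups (edgeR adjusted p = 0.0753). Plin3 had 77.7 ± 6.85 CPM in CPC and 98 ± 12.1 CPM in Con (edgeR adjusted p = 0.0443), and lost its call in 7 of 16 alternative fits. Plin2, a widely expressed droplet coat gene, had 78.6 ± 10.4 CPM in CPC and 76.6 ± 3.04 CPM in Con, and Lipe, which encodes hormone-sensitive lipase, had 26.2 ± 4.62 CPM in CPC and 22.5 ± 4.5 CPM in Con. Neither passed (edgeR adjusted p = 0.8 for Plin2 and 0.36 for Lipe), and with the replicate block Lipe passed as higher (log2 change 0.22, edgeR adjusted p = 0.0409).

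Cholesterol efflux genes had 6 falls and 2 rises among 10 tested of 11 listed, with a median log2 change of -0.79. Over all tested genes 19.7% fell and 19.6% rose. Abca1, the exporter to lipid-poor apolipoprotein, had 78.3, 73 and 61.9 CPM in CPC and 176, 205 and 132 CPM in Con, a 2.4-fold fall (edgeR adjusted p = 0.002). Abcg1, the exporter to HDL, fell to 3.26 ± 0.341 CPM in CPC, against 9.83 ± 0.819 CPM in Con (SD, n = 3). Macrophage markers were lower in the same libraries, and the part of those cells in the Abca1 and Abcg1 values was not tested. Cyp27a1, the sterol 27-hydroxylase gene, rose 2.45-fold, to 12.9 ± 0.492 CPM in CPC, against 5.28 ± 0.391 CPM in Con. Without replicate 1 of both groups 3 fell and 1 rose.

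Set beside these, all 19 sterol synthesis enzyme genes fell (15 to 19 on leaving out libraries), with log2 changes of -4.53 to -0.86. Of them 0 rose at an unadjusted p under 0.05 or by DESeq2. Stard4 at -1.98 and Lrp8 at -1.11 lie inside that range, but the range is wide. Genes of other lists lie inside it too, such as Apoe at -1.66, Abcg1 at -1.59 and Gusb at -1.02. Hmgcs1, which makes the HMG-CoA at the start of the pathway, fell by 2.31 on the log2 scale, and Sc5d, an enzyme of its late steps, fell by 1.02. Of 31 genes for lysosomal hydrolases, membrane and pump proteins and the regulator TFEB, 3 rose and 5 fell, with log2 changes of -1.02 to 1.24, so Npc1 at 1.96 lies above every gene of that list. With the replicate block 7 rose and 9 fell, and falls numbered 3 without Con 2, Con 3, CPC 1, CPC 2 or the replicate 2 pair, and 1 when the replicate 1 pair was left out. Gusb, the beta-glucuronidase gene, fell 2.03-fold, the carboxypeptidase gene Scpep1 rose 2.36-fold and Gaa, the acid alpha-glucosidase gene, rose 1.64-fold. Whether the 9 genes differ from either list as a group was not tested.

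**Figure D4:**
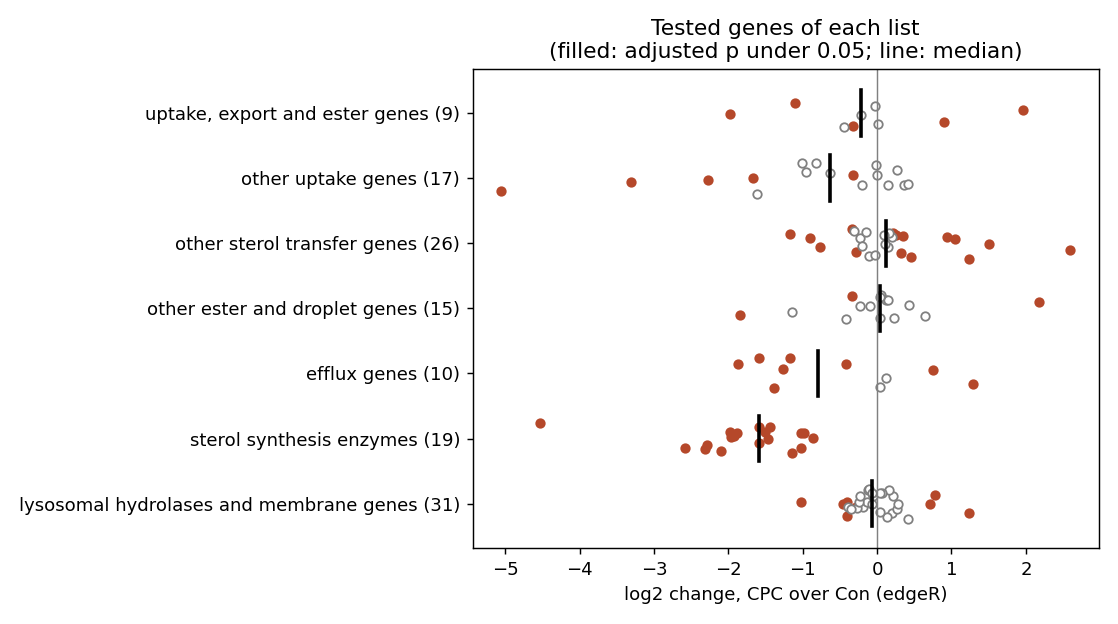
Log2 change of CPC over Con (x axis) for every tested gene of each list, with the number tested in brackets; filled points had an edgeR adjusted p under 0.05, black lines are medians, and vertical scatter is for legibility. The 9 genes spread from -1.98 to 1.96 around a median of -0.21, while the sterol synthesis enzymes all lie below 0.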

How the data were processed

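RNA sequencing libraries were grouped and numbered by their titles. Each file deposited by the authors holds 1 whole-number raw count per gene, with symbol, length and location (GRCm38.p6, per the file headers). Bowtie2, RSEM and the human build hg19 are listed per the submitters' processing notes, so how these mouse counts were made is uncertain, and no source here says whether strand was used. The deposited length is that of 1 transcript for 99.4% of genes matched to GENCODE M21 (8 of the 9 described here), so TPM was computed with union exon lengths.

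Counts were filtered with filterByExpr (15000 of 26620 genes with any count), scaled by TMM and compared with edgeR 4.0.16 (R 4.3.3; quasi-likelihood test, robust dispersion, group as the only term), and p-values were Benjamini-Hochberg adjusted over all tested genes. Standard errors are the log2 change over the square root of F. The script was tested on simulated counts. DESeq2 1.42.0 and limma-voom 3.58.1 were alternatives. Count ratios had 0.5 added to each count. Intervals do not cover unknown differences in culture or animal.

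The genes described, the other lists and the markers were chosen with earlier results of these data known. Named in other lists were 13 genes picked for their role and the 3 smallest adjusted p of each list, of which some are not reported here. Rmc1 and C1qc were named after their values were seen.

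Equal replicate numbers were treated as pairs only in the fit with the replicate block and in the differences between libraries of the same number. The main fit, whose calls are given first, did not use the pairing. Each library's deviation from its group mean, taken across genes, correlated at 0.626, 0.576 and 0.596 between equal numbers and at -0.342 to -0.238 between unequal ones. Deviations within a group cancel out, so positive values between equal numbers bring negative ones between unequal numbers. The link between equal numbers is a property of the data, and the labels do not state what was shared. Where the block changed the call of a gene named here, its value stands beside the result.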

Additional observations from a re-analysis of the deposited data

How the results depend on the processing

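Npc1, Stard4 and Lrp8 kept direction and call in all 16 alternatives, and Vldlr in 15. Scarb1 passed with no filter (-0.44, log2 change), a filter of 5 CPM in 3 libraries (-0.47), DESeq2 (-0.45), limma-voom (-0.46), the replicate block (-0.46), and without CPC 3 or replicate 3 of both groups, and Lipa with the block (-0.22). Npc2 lost its call without scaling factors (-0.25). Soat1 changed sign with the 5 CPM filter (-0.0064), as did Nceh1 without scaling factors (0.0485) and Mylip without factors (0.056), without a filter (0.00102) and with the block (0.0144), all below the threshold. The replicate block raised calls over all genes to 3978 higher and 4178 lower, against 2945 and 2954 without it. It gave 5 lower genes among the 9; in other uptake 3 higher and 11 lower; in ester genes 3 higher; in lysosomal genes 7 higher and 9 lower. Among the 9 it changed no call but those of Scarb1 and Lipa, and among the named list genes those of Lrp1 (0.26) and Lipe (0.22). Lrp1 also passed with DESeq2, limma-voom, no scaling factors and without CPC 3. Without scaling factors, other uptake had 1 higher (also with DESeq2 and limma-voom), ester genes 1 lower and lysosomal genes 7 higher, and the median of all genes moved to 0.07.

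Leaving out 1 library, or 1 number from both groups, gave log2 changes of -0.60 to -0.36 for Scarb1, 0.75 to 1.05 for Vldlr, -0.38 to -0.22 for Npc2, -0.29 to -0.11 for Lipa, -0.0851 to 0.13 for Soat1, -0.14 to 0.10 for Nceh1, -0.22 to 0.28 for Mylip and -0.0204 to 0.16 for Plin2, and -0.0306 to 0.0786 for the Soat1 to Nceh1 ratio. All genes had 928 to 2613 higher and 1033 to 2576 lower, the fewest without replicate 1. Of the 9 genes 1 to 2 were higher. Other uptake had 0 to 1 higher, sterol transfer 3 to 8 higher and 2 to 4 lower, ester genes 1 to 2 higher and 0 to 3 lower, efflux 1 to 2 higher and 3 to 6 lower, lysosomal genes 1 to 5 lower, and sterol synthesis 15 to 19 lower. The cause of these moves was not tested. Summing identifiers was not run, since each gene had 1. The smallest change that 3 libraries a group can show was not tested.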
